A study of Mus musculus with 4 samples.

Results

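Elastic fibre and microfibril genes were examined in mouse molar teeth. The genes named were 10, namely Eln, Fbn1, Fbn2, Fbln1, Fbln2, Fbln5, Mfap2, Mfap4, Mfap5 and Ltbp1, and every probe set annotated to exactly 1 of them was taken. Of the 10 genes, 9 had such a probe set, out of 18193 genes measured, and together they held 19 probe sets. Fbn1 (fibrillin-1) had no probe set annotated to it here and is not analysed here. The study pooled molars taken by hand from 60 Swiss Webster pups of both sexes aged 1 to 10 days, with no treatment, and hybridised the RNA to 4 Affymetrix Mouse Genome 430 2.0 arrays. On these arrays, groups of short probes report the 3′ region of a transcript. All 4 arrays carried the same pool and form 1 group, so every SD and p-value below measures technical spread only. No tissue, age or cell type can be compared within these arrays, and the study's control tissues are not analysed here.

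Elastic fibres have a core of cross-linked elastin that is laid down on a scaffold of microfibrils. The microfibrils are polymers of fibrillin and carry microfibril-associated glycoproteins, fibulins and latent TGF-beta binding proteins, which store the growth factor in the matrix. In the periodontal ligament much of this system takes the form of oxytalan fibres, microfibril bundles without an elastin core, while vessel walls in pulp and follicle contain elastin. A pool of ground teeth does not separate these sites, and fewer cells of a type and less RNA per cell cannot be told apart in it.

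The pool had strong signals for the tooth marker genes, with all 5 of Amelx, Ambn, Enam, Dspp and Dmp1 above background on every array. Signals are MAS5 intensities in arbitrary units on a linear scale. Olfactory, vomeronasal and taste receptor genes, with 86 probe sets, served as background, and the threshold on each array was their 95th percentile. It was 996 on array 1, 1097 on array 2, 1295 on array 3 and 1266 on array 4. Probe sets that exceeded the threshold on all 4 arrays were called above background, and so were genes with at least 1 such probe set. By this rule 51.6% of all genes and 35.8% of all non-control probe sets were called. The limma test asked, one-sided, whether log2(signal / threshold) exceeded 0. With p-values adjusted by the Benjamini-Hochberg method over 45037 probe sets, it called 35.2%. Brightness also depends on the probes, so signals of different genes do not give an order of mRNA amounts.

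Of the 9 measured elastic fibre and microfibril genes, 7 were above background, or 77.8% beside 51.6% of all genes. The 7 were Eln, Fbn2, Fbln1, Fbln2, Fbln5, Mfap2 and Ltbp1, and limma called the same 7. Mfap4 and Mfap5 were not above background. The median log2 signal of the 9 genes, each taken at its brightest probe set, was 12.48, beside 10.69 for all genes. With each gene at the median of its probe sets the values were 10.42 and 9.90. These medians describe brightness on the arrays, not amounts of mRNA. Of the 19 probe sets, 10 were above background, beside 35.8% of all non-control probe sets. On every array, each of those 10 was brighter than all 86 receptor probe sets, whose highest signals were between 1447 and 2389. A gene with more probe sets has more chances to pass, and the 9 genes had 1 to 3 each. When a gene was represented by the median of its probe sets, 4 of the 9 passed (44.4%, beside 39.3% of all genes), namely Eln, Fbn2, Fbln1 and Mfap2.

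**Figure D1:**
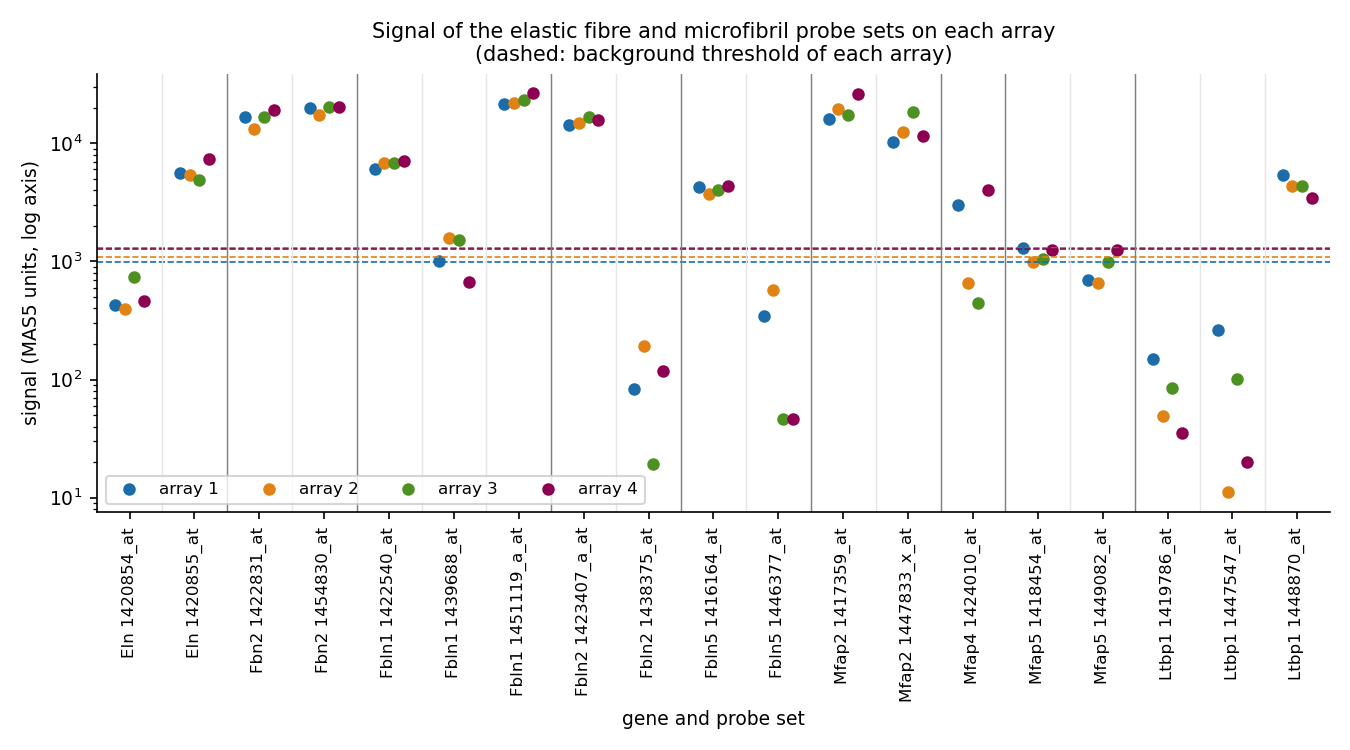
Signal of each of the 19 probe sets on arrays 1 to 4 (vertical log axis, MAS5 units), grouped by gene along the horizontal axis, with the background threshold of each array as a dashed line in that array's colour. The probe sets above background lie between 3416 and 26364, and Mfap4 is split, with arrays 1 and 4 above the lines and arrays 2 and 3 below them.

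Elastin was above background by 1 of its 2 probe sets. Eln encodes tropoelastin, the monomer of the elastic core. Probe set 1420855_at had signals of 5567, 5394, 4864 and 7391 on arrays 1 to 4, a mean of 5804 ± 1099 (SD, n = 4). Array 4 was the highest, and the lowest array was still far above its threshold. The mean log2 signal over threshold was 2.31 ± 0.13 (SE), or 4.95-fold, with a limma adjusted p of 9.13e-11. The other Eln probe set, 1420854_at, had 431, 397, 734 and 463 and was below the threshold on all arrays. On each array between 14 and 29 of the 86 receptor probe sets were brighter than it.

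Markers of smooth muscle, a cell type that makes elastin in vessel walls, were above background for 4 of 7 genes, or 57.1% beside 51.6% of all genes. Without suffixed probe sets 2 of 6 passed, beside 46.6% of all genes. The summed signal of the 7 markers ranged from 63812 to 66059 over the arrays. Among them, Myh11 had 653 ± 347 (SD, n = 4) and exceeded the threshold on 0 arrays. Acta2, a smooth muscle actin also made by activated fibroblasts, had a signal of 29157 ± 1468 (SD, n = 4). It passed by 1 of its 3 probe sets, which carries a suffix, and the median of its probe sets did not pass. Rgs5, a pericyte marker, had 25111 ± 651 and passed by all 4 of its probe sets. Cnn1 (calponin, a contractile protein of mature smooth muscle) had 83.8 ± 30.9 and exceeded the threshold on 0 arrays. Des (desmin) had 1442 ± 303 and exceeded it on 3. All 5 endothelial markers were above background (3 of 3 without suffixed probe sets), with Egfl7 at 7975 ± 377, Cdh5 (VE-cadherin) at 4429 ± 455 and a summed signal of 19050 to 20382. The part of vessel wall cells in the Eln signal was not tested.

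Fibrillin-2 was above background by both of its probe sets. Fbn2 encodes a fibrillin made mostly during development. Probe set 1454830_at had signals of 19892, 17302, 20186 and 20348, a mean of 19432 ± 1432 (SD, n = 4), and 1422831_at had 16744, 13155, 16678 and 19227, a mean of 16451 ± 2497. Both were lowest on array 2 and highest on array 4. The log2 signal over threshold was 4.07 ± 0.11 (SE) for the first and 3.82 ± 0.11 for the second, with limma adjusted p-values of 1.36e-14 and 4.18e-14. These probe sets gave the only measurement of a fibrillin here, since Fbn1 is not analysed here.

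The microfibril-associated genes differed in their calls. Mfap2 encodes MAGP-1, a small glycoprotein bound along fibrillin microfibrils, and was above background by both probe sets. Probe set 1417359_at had 16016, 19601, 17397 and 25872, a mean of 19722 ± 4358 (SD, n = 4), and its log2 signal over threshold was 4.07 ± 0.12 (SE; limma adjusted p 2.99e-14). It was highest on array 4. Probe set 1447833_x_at, whose suffix marks sequence shared with other transcripts, had 10326, 12506, 18426 and 11419, and it was highest on array 3. The probe sets of Mfap2 therefore placed different arrays at the top, and each had a larger spread than most probe sets of its brightness. Their SDs of log2 signal were 0.30 and 0.37, beside a median of 0.15 for the brightest 25% of probe sets.

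Mfap5 encodes MAGP-2, the other member of this glycoprotein pair, and lay close to the threshold. Its probe set 1418454_at had 1298, 990, 1040 and 1254, a mean of 1146 ± 153 (SD, n = 4), and exceeded the threshold on array 1 alone. Its log2 signal over threshold was -0.02 ± 0.21 (SE), with a limma adjusted p of 1. Probe set 1449082_at had 699, 662, 991 and 1253 and exceeded the threshold on 0 arrays. Mfap5 was above background when the threshold was lowered to the 75th percentile of the receptor probe sets. A signal at the threshold does not show that the gene was silent.

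Mfap4 stood apart between arrays. It encodes a fibrinogen-related protein that binds elastin and microfibrils, and 1 probe set, 1424010_at, reports it here. Its signals were 2976 on array 1, 662 on array 2, 445 on array 3 and 4045 on array 4, a mean of 2032 ± 1764 (SD, n = 4). On arrays 1 and 4 it was brighter than all 86 receptor probe sets, and on arrays 2 and 3 it was below the threshold, with 16 and 27 receptor probe sets brighter. The highest signal was 9.10-fold the lowest, although all arrays carried the same RNA. The log2 signal over threshold was 0.25 ± 0.41 (SE), with a limma adjusted p of 0.714.

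The spread of Mfap4 was large for its brightness. Its SD of log2 signal was 1.57, beside a median of 0.28 for the 11259 probe sets in the same brightness class, which holds 25% of probe sets by mean log2 signal, and 14 of these had a larger SD. Over the whole table, 171 of 45037 non-control probe sets (0.380%) exceeded the threshold on arrays 1 and 4 and on neither of the others. The lower of its signals on arrays 1 and 4 was 4.50-fold the higher of its signals on arrays 2 and 3, and 2 of the 171 probe sets, Mfap4 included, reached that ratio. This pattern was counted after the values had been seen. Quantile normalisation left signals of 2924, 618, 411 and 4092, with the same arrays on each side. The mean of 2032 thus describes none of the arrays. The median log2 signal of the smooth muscle markers was 12.01, 11.53, 11.83 and 11.88 on arrays 1 to 4. On every array this median was the value of 1 gene, Smtn. Tagln was also higher on arrays 1 and 4 than on arrays 2 and 3, and Acta2, Rgs5, Myh11, Cnn1 and Des were not. All 4 arrays carried the same pool, so these differences between arrays are technical spread, for the markers as for Mfap4. The part of smooth muscle in the Mfap4 signal was not tested.

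**Figure D2:**
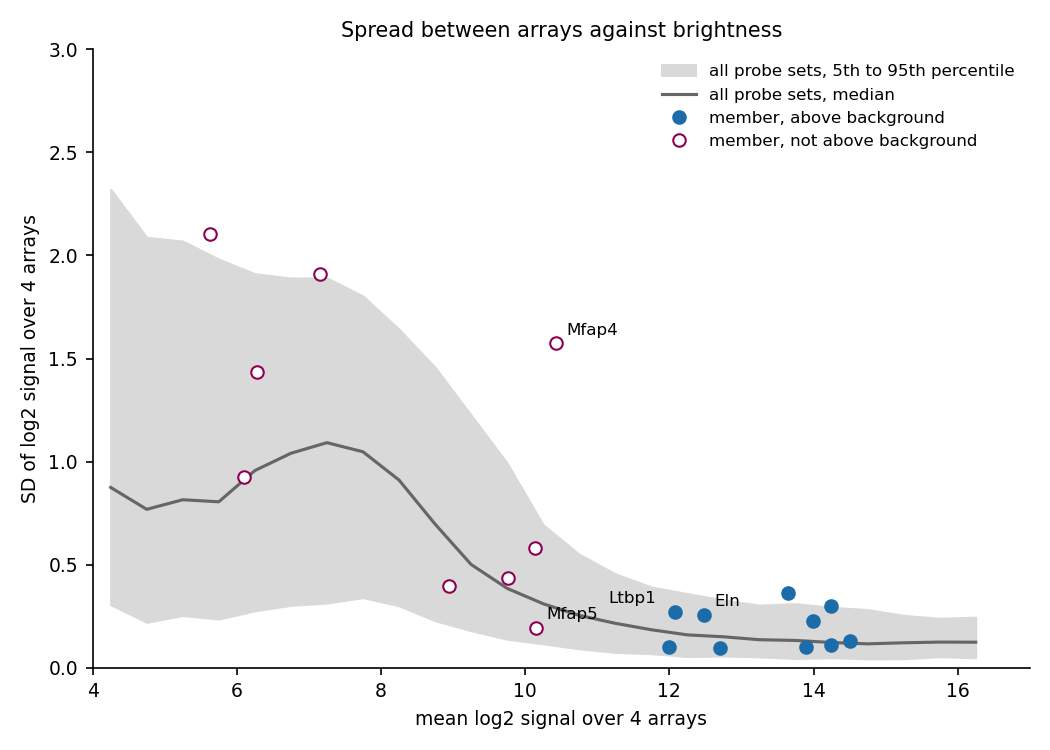
SD of log2 signal over the 4 arrays (vertical axis) against mean log2 signal (horizontal axis) for the 19 probe sets, filled where above background and open where not, over the median (line) and the 5th to 95th percentile (band) of all non-control probe sets in steps of 0.5 in mean log2 signal. Mfap4, with an SD of 1.57, lies far above the band, while the Mfap5 probe set of like brightness, with 0.19, lies below the median.

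The fibulins were above background for all 3 genes, each by at least 1 probe set, beside 51.6% of all genes. Fbln1 encodes a fibulin of basement membranes and elastic fibres. Its probe set 1451119_a_at, with a suffix that marks several transcripts of the same gene, had 21683, 21951, 23384 and 26364, a mean of 23346 ± 2147 (SD, n = 4). Its log2 signal over threshold was 4.33 ± 0.11 (SE; limma adjusted p 5.68e-15). Probe set 1422540_at had 6060, 6824, 6757 and 7073, also above the threshold on all arrays. The third, 1439688_at, had 1006, 1574, 1510 and 667 and passed on arrays 1, 2 and 3 but not on array 4. Without array 4 this probe set was above background, which raised the count of probe sets from 10 to 11. The rule is looser when it needs fewer arrays, and 54.1% of all genes then passed, beside 51.6% with all arrays.

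Fbln2 encodes a fibulin of vessel walls and basement membranes that binds fibronectin and nidogen. Probe set 1423407_a_at had 14199, 14764, 16707 and 15686, a mean of 15339 ± 1099 (SD, n = 4), and the arrays lay close together. Its log2 signal over threshold was 3.73 ± 0.10 (SE; limma adjusted p 1.97e-14). The other probe set, 1438375_at, had 83.5, 193, 19.2 and 118, with at least 50 of the 86 receptor probe sets brighter on each array. The call of Fbln2 therefore rests on 1 probe set that carries a suffix, and with suffixed probe sets left out Fbln2 was not above background.

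Fbln5 encodes a fibulin needed for elastic fibre assembly, which binds tropoelastin and the cross-linking enzyme LOXL1. Probe set 1416164_at had 4278, 3736, 3992 and 4353, a mean of 4090 ± 283 (SD, n = 4). Its log2 signal over threshold was 1.82 ± 0.13 (SE), or 3.53-fold, with a limma adjusted p of 1.75e-09. The signals differed by at most 1.17-fold between arrays. Probe set 1446377_at had 345, 568, 46.0 and 46.0 and was below the threshold on all arrays.

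Ltbp1 encodes a binding protein that holds latent TGF-beta and attaches it to fibrillin and fibronectin. Probe set 1448870_at had 5420, 4387, 4374 and 3416, a mean of 4399 ± 819 (SD, n = 4), with array 1 highest and array 4 lowest. Its log2 signal over threshold was 1.91 ± 0.15 (SE), or 3.75-fold, with a limma adjusted p of 9.03e-09. The other 2 probe sets of Ltbp1 were far below the threshold. They had 150, 48.8, 85.4 and 35.1 for 1419786_at, and 264, 11.1, 102 and 20.1 for 1447547_at. The probe sets of Eln, Fbln1, Fbln2, Fbln5 and Ltbp1 thus disagreed on the call, and those of Fbn2, Mfap2 and Mfap5 did not. Why probe sets of a gene disagreed was not tested.

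Among the 10 probe sets above background, the arrays agreed about as closely as for other genes. The median SD of log2 signal was 0.18, from 0.10 for Fbln1 (1422540_at) to 0.37 for Mfap2 (1447833_x_at), beside 0.17 for all 16113 probe sets above background. Array 4 gave the highest signal for 7 of the 10, beside 32.4% of all probe sets above background. After quantile normalisation array 4 was the highest for 6 of the 10, beside 31.8%. Ltbp1 went the other way and was lowest on array 4, by 0.35 below its mean log2 signal. The 10 probe sets include pairs from Fbn2, Fbln1 and Mfap2, which are not independent.

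**Figure D3:**
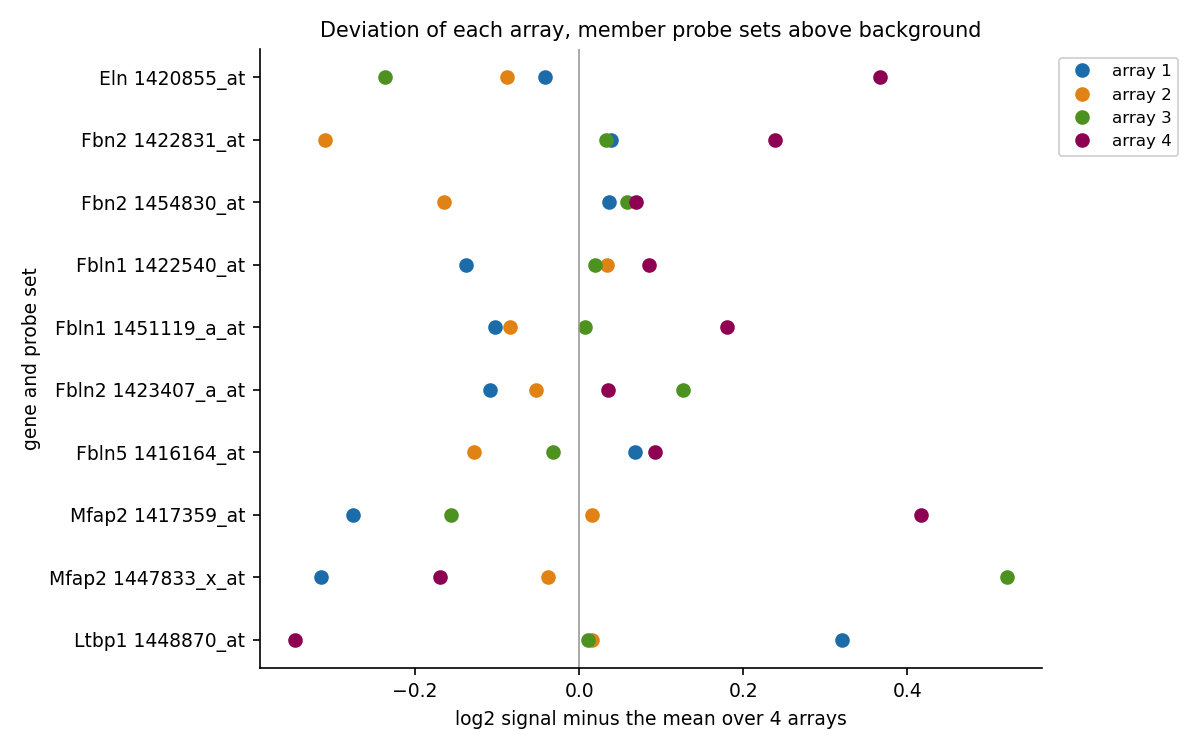
Log2 signal on each array minus the mean over the 4 arrays (horizontal axis) for the 10 probe sets above background (vertical axis), 1 point per array. Array 4 is the rightmost point for 7 of the 10 and the leftmost for Ltbp1, at -0.35.

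The genes that work with elastin and microfibrils were taken as 6 lists of 53 genes, of which 49 were measured and 37 (75.5%) were above background, beside 51.6% of all genes. Cross-linking enzymes were above background for all 4 genes measured. Lox, lysyl oxidase, which oxidises lysines of elastin and collagen, had a signal of 41860 ± 4810 (SD, n = 4; limma adjusted p 2.86e-15). Loxl1, the family member tied to elastin renewal, had 5888 ± 393, although the median of its probe sets did not pass. Other assembly proteins were above background for 10 of 15, or 66.7%. With the threshold at the 99th percentile 8 passed, beside 48.2% of all genes, and at the 75th 13 passed, beside 65.3%. Fbln7 (fibulin-7) had 17952 ± 1891 and Emilin2, an elastic fibre interface protein, had 10391 ± 1306. The microfibril-related ADAMTS family genes Adamts6 and Adamtsl1 had 511 ± 185 and 880 ± 204 and were not above background.

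Latent TGF-beta genes were above background for all 6 measured, beside 51.6% of all genes. Ltbp3, a binding protein whose loss causes enamel defects and missing teeth, had 26813 ± 2568 (SD, n = 4), and Tgfb1, a growth factor held in these complexes, had 26743 ± 1810. Matrix partners were above background for 7 of 8, beside the same 51.6%. The proteoglycan genes Dcn and Bgn had 84169 ± 12175 and 78327 ± 12900, and Tnxb, tenascin-X, had 461 ± 477 and exceeded the threshold on 0 arrays. Its signals of 86.0, 138, 1122 and 499 on arrays 1 to 4 differed widely.

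Cell receptors of these matrix proteins were above background for 5 of 8, or 62.5% beside 51.6% of all genes. With genes at the median of their probe sets 2 of 8 passed, beside 39.3% of all genes, and Itgav, Itga8 and Itgb1 did not. The integrin genes Itgav and Itgb5, whose products pair to bind the cell-binding motif of matrix proteins, had 42587 ± 2532 and 29756 ± 1955 (SD, n = 4). Itga5 and Itgb3 had 857 ± 184 and 727 ± 233 and were not above background. Enzymes able to degrade elastin were also above background for 5 of 8. Ctsl (cathepsin L) had 33866 ± 1099 and Mmp2 (gelatinase A) 28460 ± 5762, while Cela1 and Elane, pancreatic-type and neutrophil elastase, had 857 ± 396 and 411 ± 139.

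**Figure D4:**
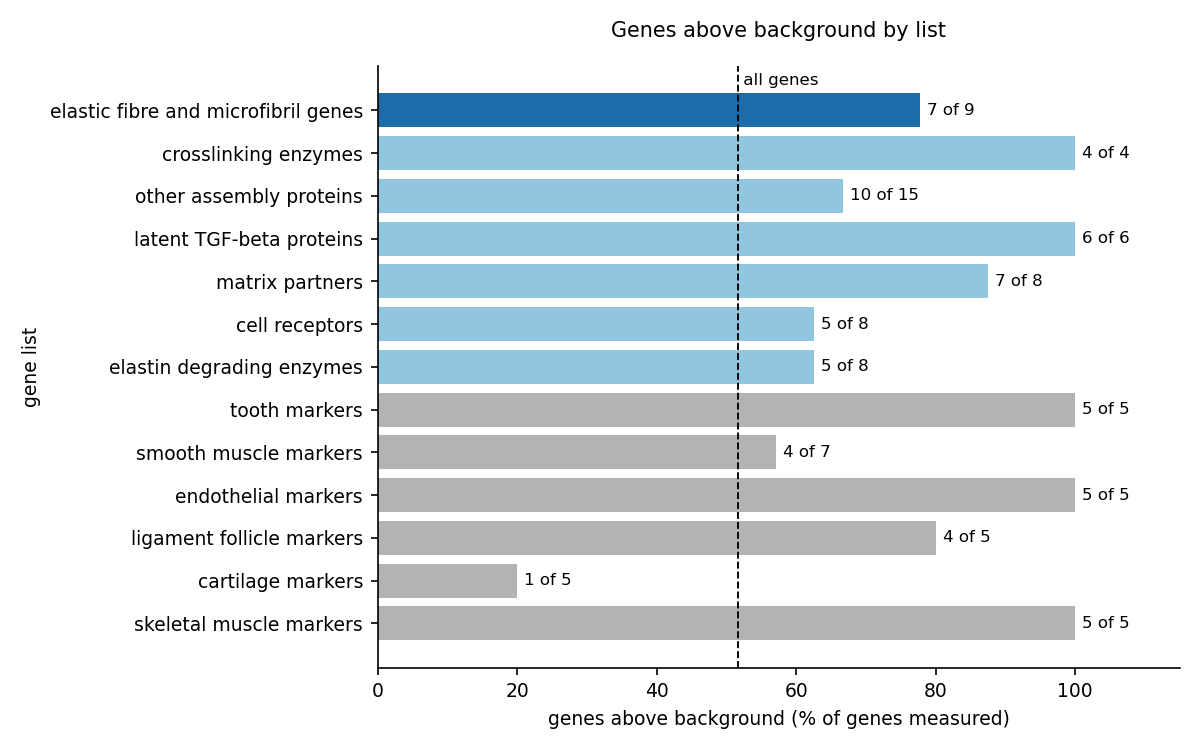
Share of measured genes above background on all 4 arrays (horizontal axis, percent) for the elastic fibre and microfibril genes (dark blue), the 6 pathway lists (light blue) and the marker lists (grey), with the counts at the bar ends and the share of all genes, 51.6%, as a dashed line. The elastic fibre and microfibril genes stand at 7 of 9 and the pathway lists between 5 of 8 and all members.

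Markers of other tissues that the pool could hold were also measured. Their counts stand beside 51.6% of all genes above background. Ligament and follicle markers were above background for 4 of 5, with Postn (periostin) at 25388 ± 1524 (SD, n = 4) and Col12a1 at 19972 ± 2845, while Scx (scleraxis, a transcription factor of tendon cells) had 603 ± 296 and passed on 0 arrays. Their summed signal was 52823 to 62139. Skeletal muscle markers were above background for all 5, with Acta1 at 20889 ± 1385 and Myl1 at 13824 ± 2129, and a summed signal of 48835 to 57497. Without suffixed probe sets 2 of the skeletal muscle markers were measured, and both passed, beside 46.6% of all genes. Cartilage markers were above background for 1 of 5, Col2a1, at 4118 ± 918, with Acan at 1238 ± 150 and Col9a1 at 1304 ± 151, and a summed signal of 6371 to 8254. The cartilage count was 3 of 5 with the threshold at the 75th percentile, beside 65.3% of all genes. It was 0 of 4 without suffixed probe sets, beside 46.6%. The part of each tissue in the elastic fibre and microfibril signals was not tested.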

How the data were processed

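The deposited table gives 1 intensity per probe set and array (45101 probe sets, 64 of them controls). The authors' intensity values come from MAS5, per the submitters' processing notes. The sources used here give none of its settings. The intensity values, as deposited, had a mean without the lowest and highest 2% of 2500 on every array, so they had been scaled. The number of arrays limits the precision. No genome build is named, so no coordinates are given.

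Genes were named from the platform annotation: 34958 probe sets named 1 gene, 932 several, and 9160 non-control probe sets none. Of 34945 non-control probe sets naming 1 gene, 34741 matched the RefSeq gene table and 0 changed symbol. The call rule and the limma test (limma 3.58.1, R 4.3.3, mean-variance trend) are given with the results. Tested on simulated data of 45037 probe sets for this comparison, the all-array rule called 72% of 50 probe sets set 1.5-fold above threshold and 100% at 2-fold or more. Limma called 0%, 6%, 100% and 100% at 1.5-, 2-, 4- and 8-fold. All other simulated probe sets were set below the threshold, unlike the real arrays, where limma called 35.2% of probe sets. The simulated limma rates therefore do not carry over to the real arrays. There, Tek at a log2 signal over threshold of 0.61 had a limma adjusted p of 0.00343. Named genes are every probe set of the 9 genes and, per other list, the 2 of highest signal above background, a rule for choosing names and not an order of amounts, and up to 2 not above it in alphabetical order, plus the 5 tooth markers. Some further genes, among them Myh11, Smtn, Tagln and Tek, are named outside this rule after their values had been seen. The genes and lists were chosen with earlier results of these data known. Alternatives were thresholds at the 99th and 75th percentile, a testis and retina background (48 probe sets), 3 of 4 arrays, quantile normalisation, no suffixed probe sets, the median probe set, limma without trend, and leaving out each array.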

Additional observations from a re-analysis of the deposited data

Results flagged for a closer look

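A gap test was run on 70 sets of 4 array values, and in 5 of them a single array lay outside the rest. By chance about 1 in 20 sets, or 3.5, would. Fbn2 (1454830_at) was lower on array 2, at a log2 signal of 14.08 against 14.28 to 14.31 on the others. The median log2 signal of the cell receptor list was higher on array 4, at 12.10 against 11.96 to 11.98, and that of the cartilage markers was higher on array 2, at 10.45 against 10.12 to 10.16. Mmp2 was higher on array 4, at 15.18 against 14.59 to 14.68, and Des was lower on array 4, at 9.95 against 10.59 to 10.67. The split of Mfap4 into arrays 1 and 4 against arrays 2 and 3 is not of this kind, because 2 arrays lie on each side.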

How the results depend on the processing

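The count of elastic fibre and microfibril genes above background was 7 of 9 in the reported analysis, and between 6 and 8 under every alternative except the median probe set of a gene, which gave 4. The share of all genes moved too. It was 51.6% as reported, 65.3% at the 75th percentile, 46.6% without suffixed probe sets and 39.3% with the median probe set. Leaving out each array gave 7 in every case, beside 51.8% to 54.1% of all genes. The rule then needed only the remaining arrays at unchanged thresholds, so these counts could not fall. Of the 19 probe sets, 10 were above background, beside 35.8% of all non-control probe sets, and between 7 and 13 under the alternatives. Leaving out each array gave 10 to 11, and these counts could not fall either. Limma called 10 probe sets, beside 35.2% of all non-control probe sets, and between 7 and 14 under the alternatives. The shares of all probe sets under the alternatives are not given here. Without suffixed probe sets the median log2 signal of the genes was 12.08, beside 10.33 for all genes, and with the median probe set of a gene 10.42, beside 9.90. It was 12.48, beside 10.69, as reported, and 12.36 to 12.56 when each array was left out. The pathway lists had 37 genes above background, and 31 to 43 under the alternatives. The count of 43 came at the 75th percentile, where 65.3% of all genes passed. That of 31 came with the median probe set, where 39.3% did. Of 63 signals of single genes recomputed, 55 moved by less than the SD between arrays. Most of these could not have moved further. Leaving out 1 of 4 arrays cannot move a mean by the full SD. Without suffixes, a gene whose brightest probe set has no suffix keeps the same signal. The 8 that moved further did so with the median probe set (6) or without suffixes (2), where another probe set enters by construction. Under quantile normalisation all 9 signals moved by less than the SD. No paired analysis was possible because all 4 arrays form 1 group. Signals near the threshold, as for Mfap5, cannot be told from background at this number of arrays. The arrays disagreed on Mfap4.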

Other observations

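Further genes of the pathway lists, chosen after their values had been seen, were as follows. Besides Ltbp1 and Ltbp3, the other latent TGF-beta binding protein genes Ltbp2 and Ltbp4 had signals of 3569 ± 110 and 9067 ± 776 (SD, n = 4) and were above background, as were the growth factor genes Tgfb2 at 8545 ± 406 and Tgfb3 at 16210 ± 1164. Among the microfibril-related ADAMTS family, Adamts10 had 5891 ± 1531, Thsd4 3819 ± 855, Adamtsl2 3195 ± 723, Adamtsl4 2606 ± 207 and Adamtsl3 1687 ± 459, all above background. Adamts10 and Thsd4 each passed by 1 of 2 probe sets. Adamtsl5, at 1317 ± 191, was not above background, nor were Adamts6 and Adamtsl1. Efemp1 (fibulin-3) had 944 ± 409 and Hmcn1 (hemicentin-1) 1088 ± 96.9, and each passed on 1 array. Itgb6, an epithelial integrin subunit that activates latent TGF-beta, had 5144 ± 1500 and was above background. Itgb8, another integrin subunit of the same list, had 703 ± 234 and passed on 0 arrays. Mmp12, the macrophage elastase, had 171 ± 125 and passed on 0 arrays.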
